A study of Oryza sativa Indica Group with 24 samples.

Results

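The 6 arrays described here hold the vegetative stage of a drought experiment on field-grown rice (Oryza sativa Indica Group, cultivar Nagina 22, known for its tolerance of drought). They were chosen by age: of the 24 arrays of the series, they are those of days 45 and 52 after germination, with 1 array for each of 3 levels of stress on each day. Stressed plots were kept at 60% of field capacity (mild), 40% (moderate) or 15% (severe), field capacity being the water that a soil holds once it has drained, and their control plots at field capacity. Per the labels the stress had lasted 14 days on day 52 and 7 days on day 45. Leaf RNA of a stressed plot (Alexa 594) and of a well-watered plot of the same age (Alexa 488) were hybridised together to spotted complementary DNA, so each array gives the ratio of stress over control for each of 7296 clones. All groups share 1 cultivar, 1 dye orientation and, within a level, 1 plot code. Any steady bias of 1 dye is therefore part of each ratio but drops out of differences between days or levels, and p-values measure the spread between arrays, not between plots.

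Leaves that run short of water accumulate abscisic acid, which closes the stomata, and they turn on genes for dehydrins, other late embryogenesis abundant proteins, osmolyte synthesis and detoxification, while genes of photosynthesis and growth are commonly lowered. Since 0 of the 7296 clone names could be found among 39387 reference genes of rice, clones are given by their printed names, and neither these gene groups nor leaf markers could be looked up. The labels give leaves as the tissue of every sample and rice seedlings as its source, whereas the extraction protocol speaks of leaf and panicle. A printed name starts with NL, NL_ or MK, and the letters and digits before its last separator are taken here as the name of a plate of 96 clones.

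Clones could be measured on all 6 arrays, but many lay near the level of empty spots. Taking the 95th percentile of each array's empty spots as the limit, the share of clones above it ran from 8.34% to 62.3% in the stress channel and from 14.8% to 44.7% in the control channel. Duplicate spots correlated at 0.79 to 0.94 within an array. A clone is called bright here if it passed that percentile in either channel on at least 3 of the 6 arrays, which 2433 clones did; all clones named below are bright unless stated. One label was in doubt: in the authors' deposited value table the column of moderate day 52 followed the scanner file of moderate day 55 (r = 0.76 over clones, after centring per level) and not its own (-0.045). Between the scanner files themselves, that of moderate day 52 correlated at 0.488 with severe day 52 and at 0.025 with mild day 52, against 0.144 with severe day 55 and 0.107 with mild day 55. The scanner files were used as labelled. Counts, lists and correlations that differ with the day 55 file in its place are given with both; the values of single clones on moderate day 52 are those of the file as labelled. Whether the 3 arrays of a day shared control RNA is not stated in the labels. In leaf samples of mixed cells, fewer cells of a type and less RNA per cell cannot be told apart. Ratios are given as log2 of stress over control, so that 1 stands for 2-fold higher and -1 for 2-fold lower in stressed leaves.

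Over both vegetative days, 2 clones were lower in stressed than in control leaves and 0 were higher. The lower clones were NL37_G01, with a mean log2 ratio of -1.68, and MK_PG2_H05, at -1.44. They are 0.0274% of the 7296 clones tested (limma on the mean of the 6 arrays with the day as a factor, Benjamini-Hochberg adjusted p under 0.05). At an unadjusted p under 0.05 there were 440 higher and 684 lower clones, 15.4% of all.

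NL37_G01 had log2 ratios of -2.05, -1.70 and -1.68 under mild, moderate and severe stress on day 52. On day 45 they were -1.68, -2.01 and -0.97 in the same order. It was thus lower in stressed leaves on 6 of 6 arrays, and the severe array of day 45 lay nearest to 0. The mean was -1.68 ± 0.39 (SD, n = 6; SE 0.21, adjusted p = 0.00911). Its stress signal was above the empty spots on 4 arrays and its control signal on 6. Its plate as a whole did not share this level: the median of the 96 clones of NL37 was -0.83, -0.65 and -0.30 on day 52 and 0.36, 0.15 and 0.42 on day 45. However, NL37_A07 and NL37_A11 of this plate, neither of them bright, were also lower by 2-fold or more on all 3 arrays of day 52. Their means were -1.59 and -1.64 on day 52, and 0.19 and 0.16 on day 45. With print-tip loess, in which every print block gets its own curve, the mean of NL37_G01 over both days was -1.86 (adjusted p = 0.0096 by limma). The call was kept in 16 of 18 other settings and missed the threshold without mild day 45 (-1.65, adjusted p = 0.095) and without moderate day 45 (-1.57, adjusted p = 0.0552). On the 15 arrays of days 55 to 71 NL37_G01 ranged from -4.19 to 0.57, with a median of -0.44, and was below 0 on 12.

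MK_PG2_H05 had log2 ratios of -1.85, -0.83 and -1.28 under mild, moderate and severe stress on day 52. On day 45 they were -2.10, -1.31 and -1.29. All 6 arrays showed it lower in stressed leaves, with a mean of -1.44 ± 0.46 (SD, n = 6; SE 0.22, adjusted p = 0.0413). Its stress signal passed the empty spots on 2 arrays and its control signal on 6. With print-tip loess the mean was -0.99 (adjusted p = 0.185), and the call was lost in 8 of 18 other settings, among them without mild day 45 (adjusted p = 0.217), without moderate day 45 (0.11), without severe day 45 (0.102) and without severe day 52 (0.162).

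The clones next in rank, among bright clones with 1 sign on all 6 arrays, did not pass. NL_16_1 averaged -1.19 ± 0.51 (SD, n = 6; adjusted p = 0.0711) and was below 0 on 6 of 6 arrays, between -0.65 and -0.95 on day 52 and between -1.27 and -1.81 on day 45. With print-tip loess its mean was -0.50 (adjusted p = 0.452), and mild day 52 turned to 0.70. NL_6_72 averaged 1.01 ± 0.52 (SD, n = 6; adjusted p = 0.0858), with 0.54, 0.73 and 0.49 on day 52 and 1.01, 1.61 and 1.65 on day 45. NL19_C08 averaged 1.16 ± 0.66 (SD, n = 6; adjusted p = 0.0894). NL19_A08, of the same plate and the same print block, averaged 1.13 ± 0.71 (SD, n = 6; adjusted p = 0.103). These last 3 were above 0 on 6 of 6 arrays, but with print-tip loess each had 1 array below 0: NL_6_72 mild day 52 (-0.23), NL19_C08 moderate day 52 (-0.22) and NL19_A08 moderate day 45 (-0.03). Their means were then 0.74, 0.88 and 0.79. Both channels of NL_6_72 lay below the 95th percentile of the empty spots on all 3 arrays of day 52. Those of NL19_A08 did so on moderate day 45. The values of these 2 clones on these arrays are ratios of background. In all, 280 clones were above and 291 below 0 on every array, out of 7155 with all 6 values (3.91% and 4.07%). The counts were 245 and 253 with print-tip loess, and 347 and 441 of 7170 with the moderate day 55 file.

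**Figure D1:**
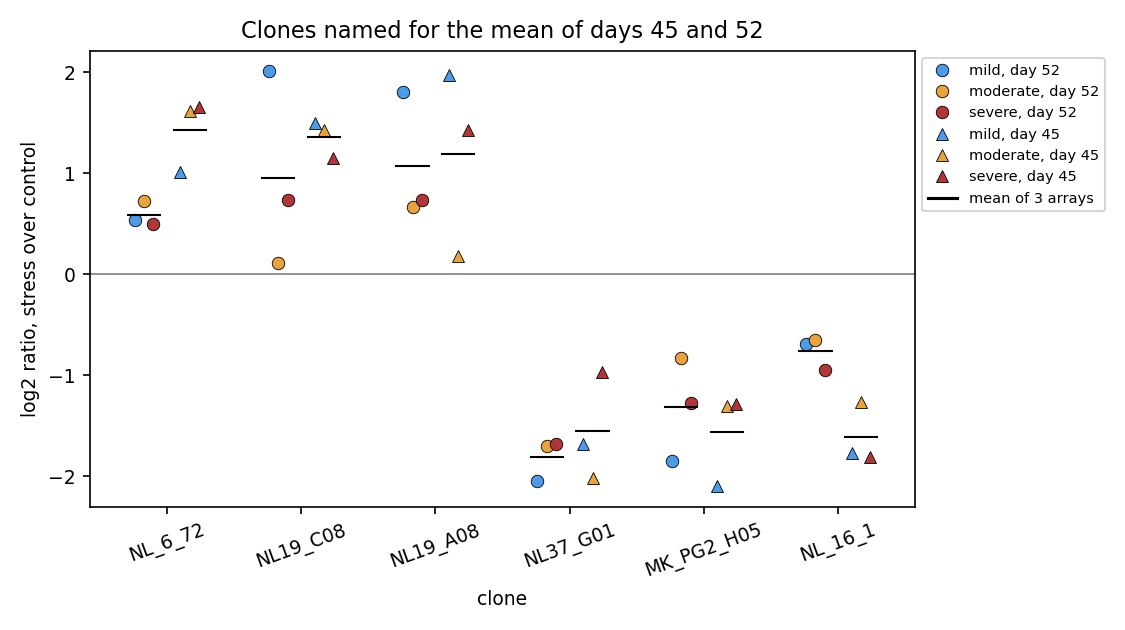
Log2 ratio of stress over control (vertical axis) of the 6 clones named for the mean of both days, with circles for the 3 arrays of day 52 and triangles for the 3 arrays of day 45, coloured by stress level; black bars are the means of a day. NL37_G01 and MK_PG2_H05 lie below 0 on all 6 arrays, and the 3 higher clones lie above 0 on all 6. An equal sign on all 6 arrays was a condition for naming a clone here.

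The number of calls differed widely between settings. Limma with the level as a fixed block called 17 higher and 164 lower clones for the mean of both days, at 1 pooled spread for every clone. With array weights limma called 102 and 303. Limma over all 21 scanner arrays, with the spread of each clone taken from all of them, called 194 and 284. Without background correction limma called 3 higher and 75 lower clones, with median centring 36 and 211, and with print-tip loess 1 and 2. Leaving out 1 array changed the count to 24 (1 higher and 23 lower) without mild day 52 and to 53 (1 higher and 52 lower) without moderate day 52. It was 0 without mild day 45 or moderate day 45 and 1 without either severe array. With the scanner file of moderate day 55 in place of moderate day 52 limma called 234 clones, 17 higher and 217 lower; NL37_G01 (-1.59, adjusted p = 0.00864), MK_PG2_H05 (-1.59), NL_16_1, NL_6_72, NL19_C08 and NL19_A08 all passed there. Each of the settings named above that called any clone called more lower than higher ones. The higher clone with print-tip loess was MK_PG4_G07.

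Set apart by day, stress against control called 0 clones on day 52 (970 at an unadjusted p under 0.05, smallest adjusted p = 0.119) and 0 on day 45 (1125, smallest adjusted p = 0.152), with limma on 3 arrays a day. The percentage called was 0 for both. With the level as a fixed block limma called 162 clones on day 52 (13 higher and 149 lower) and 13 on day 45 (3 and 10). Without mild day 52, limma called 87 clones on day 52, 2 higher and 85 lower. With the moderate day 55 file in place of moderate day 52 it called 191 on day 52, 6 higher and 185 lower, among them NL37_G01 (-1.63, adjusted p = 0.0152), NL40_F06 (-1.94, adjusted p = 0.00691) and NL_14_27 (-1.66, adjusted p = 0.027).

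Clones are named for a day only if they are bright and all 3 of its arrays share the sign of the effect. The higher clone with the smallest p among them on day 52 was NL_20_26, with log2 ratios of 1.63 (mild), 1.30 (moderate) and 2.62 (severe). On day 45 it was at -1.09, 0.35 and -0.01, but both of its channels lay below the 95th percentile of the empty spots on moderate and severe day 45. Its mean on day 52 was 1.85 ± 0.69 (SD, n = 3; adjusted p = 0.119). The next in rank among such clones, NL_6_18 and NL_10_40, averaged 1.03 ± 0.83 and 1.03 ± 0.66 on day 52 (SD, n = 3 each; adjusted p = 0.232 and 0.203 by limma). Both channels of NL_6_18 lay below the empty-spot percentile on moderate and severe day 52, and those of NL_10_40 on severe day 52. At the other end NL_14_27 averaged -2.03 ± 1.14 (SD, n = 3; adjusted p = 0.119), with -0.73 (mild), -2.56 (moderate) and -2.81 (severe). NL40_F06 was at -1.90, -1.29 and -2.06 on day 52 (mean -1.75, adjusted p = 0.119 by limma) and at 0.26, -0.48 and 0.34 on day 45. The stress signal of NL_14_27 was 0.27 and 0.22 times the empty-spot percentile on moderate and severe day 52. That of NL40_F06 was 0.56, 0.49 and 0.26 times it under mild, moderate and severe stress on day 52. Their control signals lay above it on these arrays, so the sizes of these ratios rest on a stress signal at background. On moderate day 45 both channels of both clones lay below it.

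The higher clone with the smallest p on day 45 was MK_PG4_G07. It had log2 ratios of 0.92 (mild), -0.08 (moderate) and 0.34 (severe) on day 52, against 1.65, 1.96 and 1.22 on day 45. On all 3 arrays of day 52 both of its channels lay below the 95th percentile of the empty spots, so its ratios there are those of background; it is bright through day 45 alone. Its mean on day 45 was 1.61 ± 0.37 (SD, n = 3; adjusted p = 0.152). It is printed in print row 11, where most clones had ratios below 0 on mild day 45, and print-tip loess moved its mean on day 45 to 2.36, with an adjusted p of 0.00976, the only clone that passed on day 45 in that setting. NL7_E08 averaged 1.40 ± 0.14 on day 45 (SD, n = 3; adjusted p = 0.152), and its plate NL7 had medians of 0.40, 0.17 and 0.54. The lower clone with the smallest p on day 45 was NL_16_1, with a mean of -1.62 ± 0.30 (SD, n = 3; adjusted p = 0.152). Its plate NL_16 had a median of -1.27 on mild day 45, and with print-tip loess the clone itself was at -0.02 on that array.

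Between the days no clone passed the test of the difference either. Clones named for it had to have all 3 arrays of a day above all 3 of the other, so their lack of overlap was a condition. Day 52 minus day 45 gave 0 calls by limma (0% called), with 999 clones below 0.05 before adjustment; the smallest adjusted p was 0.181. NL39_D05 had log2 ratios of -0.66 (mild), -1.47 (moderate) and -1.87 (severe) on day 52, against 1.25, 1.15 and 0.63 on day 45. The 3 arrays of each day lay on opposite sides of 0, and the difference was -2.34 (SE 0.44, adjusted p = 0.181). NL39_B01, of the same plate and print block, was at -0.96, -1.08 and -1.41 on day 52 and at 1.17, 0.72 and 0.79 on day 45, a difference of -2.04 (SE 0.39, adjusted p = 0.181). Their plate NL39 moved the same way by less, with medians of -0.20, -0.34 and -0.38 on day 52 and 0.49, 0.24 and 0.27 on day 45. With print-tip loess the differences of NL39_D05 and NL39_B01 were -1.27 and -1.08, and mild day 52 of NL39_D05 turned to 0.25. NL21_F02 was at -1.05, -0.62 and -0.54 on day 52 and at 1.73, 1.21 and 0.92 on day 45, a difference of -2.02 (SE 0.41, adjusted p = 0.181), which was -1.22 with print-tip loess. The stress signal of NL39_D05 lay below the 95th percentile of the empty spots on all 3 arrays of day 52 (0.99, 0.51 and 0.28 times that level). That of NL39_B01 did so on moderate and severe day 52, and that of NL21_F02 on mild and severe day 52. Their control signals were above it on all 3 arrays of day 52.

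In the other direction NL_20_26 differed by 2.10 (SE 0.49, adjusted p = 0.181) and NL_10_40 by 1.75 (SE 0.45, adjusted p = 0.187). NL_10_40 was at 0.94, 0.42 and 1.72 on day 52 and at -1.28, -0.47 and -0.42 on day 45, again with no overlap, a condition for being named. MK_PG6_E12 was at -0.41, 0.47 and 1.25 on day 52 and at -2.16, -0.57 and -1.41 on day 45, and its difference was 1.82 (SE 0.52, adjusted p = 0.214). Both channels of MK_PG6_E12 lay below the 95th percentile of the empty spots on mild and severe day 52 and on moderate day 45. Those of NL_10_40 did so on severe day 52 and on moderate and severe day 45, and those of NL_20_26 on moderate and severe day 45. The values of these clones on these arrays are ratios of background. With print-tip loess the differences of NL_20_26, NL_10_40 and MK_PG6_E12 were 1.64, 0.81 and 0.91. On all 3 arrays of day 52, 691 clones were higher than on each array of day 45, and 986 were lower, of 7155. With print-tip loess these counts were 516 and 611, and with the moderate day 55 file 737 and 901 of 7170. That file gave 0 calls for the difference as well (1029 at an unadjusted p under 0.05). Other limma fits called the difference more often. With the level as a block there were 27 calls (5 higher and 22 lower), at 1 pooled SE of 0.52 for every clone, against a median SE of 0.44 over clones without the block. Over the 21 arrays there were 481 (178 and 303), at a median SE of 0.36.

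The mean ratios of the days had little in common across clones. The Pearson correlation of day 52 with day 45 was 0.019 over the 7155 clones (Spearman -0.014), 0.159 with print-tip loess and 0.13 over 7170 clones with the moderate day 55 file (Spearman 0.078). Single arrays of the 2 days correlated between -0.10 (mild with mild) and 0.25 (severe day 52 with moderate day 45); for the same level it was 0.038 under moderate and 0.071 under severe stress. Clones are not independent replicates, all share the print layout, and no p is given.

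Clones at 2-fold or more below control outnumbered those above it on each array. On day 52, 8.05% of clones were higher and 12.3% lower by 2-fold or more under mild stress, 2.34% and 5.37% under moderate, and 5.87% and 7.81% under severe stress. On day 45 the shares higher and lower were 11.3% and 15.9% for mild, 1.44% and 2.87% for moderate, and 2.41% and 6.11% for severe stress. With print-tip loess the order held on 5 of 6 arrays and turned on mild day 45, where 2.55% were higher and 0.85% lower. The moderate day 55 file, used for moderate day 52, held 2.26% and 8.06%.

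Few clones passed 2-fold at every level of a day. On day 52, 2 clones were higher and 21 lower by 2-fold or more on all 3 arrays, which is 0.0276% and 0.29% of 7238 clones. On day 45 there were 10 higher and 12 lower, 0.139% and 0.166% of 7213. The same clones were then read on the day that had not chosen them. Only 5 of the 12 clones lower on day 45 are bright, against 18 of the 21 lower on day 52 and 10 of the 10 higher on day 45. Of the 12 clones lower on day 45, 11 had a mean below 0 on day 52, with a median of -0.56, against 49.1% of all clones below 0. With print-tip loess for the reading it was 9 of 12 and a median of -0.27, against 49% of all clones. MK_PG2_H05 was lowest of them on day 52, with a mean of -1.32, and MK_PG10_D03, a clone that is not bright, was the exception at 0.52. Of the 21 clones lower on day 52, 8 had a mean below 0 on day 45, with a median of 0.16, against 49.5% of all clones. With print-tip loess the direction turned, with 12 of 21 below 0 and a median of -0.10, against 49.4% of all clones. NL37_G01 was the lowest of these, at -1.56 on day 45, and NL38_E01 the highest, at 0.75. Of the 10 clones higher on day 45, 3 had a mean above 0 on day 52 (median of the 10 -0.21), against 50.9% of all clones. They were NL19_C08 at 0.95, NL_6_72 at 0.59 and MK_PG4_G07 at 0.40. Both channels of NL_6_72, like those of MK_PG4_G07, were below the empty-spot percentile on all 3 arrays of day 52, so that of these 3 readings NL19_C08 alone stands above background. With print-tip loess 5 of the 10 were above 0, with a median of 0.02, against 51% of all clones. NL41_H12 was at -0.74, -0.33 and 0.38 on day 52, against 2.01, 1.33 and 1.23 on day 45. Both clones higher on day 52, NL_20_26 and MK_PG9_E01 (not bright), had means below 0 on day 45, at -0.25 and -0.59; with print-tip loess 1 of the 2 was above 0. The lists of day 52 and their reading depended on the moderate file. With that of day 55, 2 clones were higher and 96 lower on all 3 arrays of day 52, 11 of the 96 being among the 21. Of the 96, 84 had a mean below 0 on day 45, with a median of -0.55. Of the clones chosen on day 45, 11 of the 12 lower ones were then below 0 on day 52 (median -0.61) and 8 of the 10 higher ones above 0 (median 0.25). Shares over all clones were not computed with the day 55 file.

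**Figure D2:**
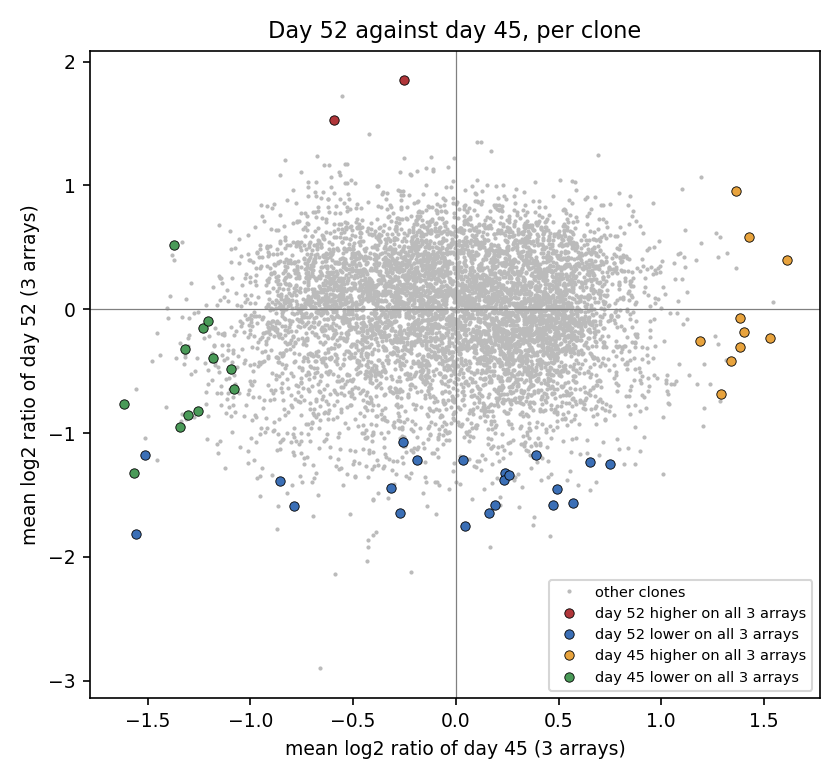
Mean log2 ratio of day 52 (vertical) against that of day 45 (horizontal) for each clone with values on all 6 arrays, each mean over 3 arrays; coloured points are the clones at 2-fold or more on all 3 arrays of a day. The cloud shows no slope (r = 0.019), most green points (lower on day 45) lie below 0 on day 52 as well, and the blue points (lower on day 52) spread from -1.56 to 0.75 on day 45.

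The lists were spread unevenly over the array. Of the 21 clones lower on day 52, 13 were printed in print rows 5 and 6, which hold 17.8% of all clones; the medians of all clones in row 6 were -0.40, -0.46 and -0.23 on mild, moderate and severe day 52. Of the 12 clones lower on day 45, 7 were in row 10, which holds 8.88% of the clones, and 5 of those came from plate NL_3. The median of row 10 was -1.18, -0.13 and -0.31 on mild, moderate and severe day 45. With print-tip loess, 1 clone of each of 3 lists was still at 2-fold on all 3 arrays of its day: NL37_G01 (lower on day 52), MK_PG4_G07 (higher on day 45) and NL42_F05 (lower on day 45). NL42_F05 was at -0.10, -1.30 and -1.46 on day 52 and at -1.06, -1.50 and -1.47 on day 45. Every clone of the 4 lists kept its sign on all 3 arrays of its day. The part of the print layout in the ratios of single clones was not tested.

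The mild array of day 45 stood apart in this respect. Its row medians ran from 0.86 in row 4 to -1.37 in row 12, a range of 2.23, against 0.38 to 1.00 on the other 5 arrays. Its NL clones had a median of 0.48, its NL_ clones of -0.71 and its MK clones of -1.04. Print-tip loess left ranges of 0.047 or less on every array. The share of clones at 2-fold or more shows the same array: it was 13.9% ± 6.31 on day 52 and 13.4% ± 12.2 on day 45 (SD, n = 3 each), and with print-tip loess 7.38% ± 5.14 and 2.86% ± 0.84. With the moderate day 55 file the share of day 52 was 14.8% ± 5.09 (SD, n = 3). Without mild day 45 the mean share of day 45 was 6.41%. With print-tip loess the share was 12.7% on mild day 52, the highest of the 6, and 3.40% on mild day 45.

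**Figure D3:**
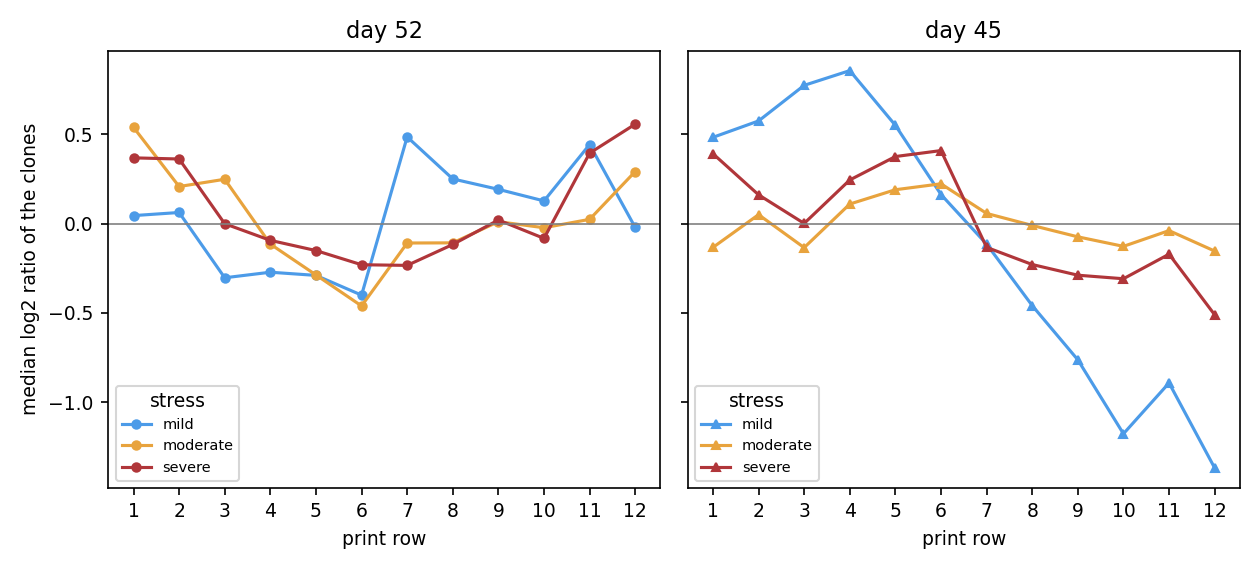
Median log2 ratio of all clones in each of the 12 print rows (horizontal axis), for day 52 (left panel) and day 45 (right panel), 1 line per stress level. On mild day 45 the line runs from 0.86 in row 4 to -1.37 in row 12; rows 5 and 6 are below 0 on all 3 arrays of day 52 and above 0 on all 3 of day 45.

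Severe and mild stress were set against each other over both days, with the day as a factor. Limma called 7 clones (0.0959%), 2 of them higher (0.0274%) and 5 lower (0.0685%) under severe than under mild stress, with 477 at an unadjusted p under 0.05. The fit has 2 residual degrees of freedom and found no difference in spread between clones, so that 1 pooled spread (SE 0.63 for every clone) stands behind these calls.

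The 2 higher clones had 1 array far below the others. NL40_G04 was at -1.83 under severe and -6.61 under mild stress on day 52, and at 0.00 and -1.42 on day 45; its stress signal on mild day 52 was 0.34 times the 95th percentile of the empty spots, while its control signal was 3.03 times that level. NL9_E08 was at 0.33 under severe and -4.96 under mild stress on day 52, and at 0.43 and -0.19 on day 45. Its stress signal on mild day 52 was 0.58 times the 95th percentile of the empty spots, and its control signal 6.98 times that level. Without mild day 52 the differences were 0.89 for NL40_G04 (adjusted p = 0.639) and 0.44 for NL9_E08 (adjusted p = 0.809), against 3.10 (adjusted p = 0.00358) and 2.95 (adjusted p = 0.0076) with it.

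The lower clones included 3 of plate NL49 whose spots lie in the first 2 spot rows of 1 print block in print row 8. NL49_D06 was at -0.55 under severe and 2.77 under mild stress on day 52, and at -1.37 and 1.55 on day 45, a difference of -3.12 (SE 0.63, adjusted p = 0.00358). NL49_C02 was at -0.90 and 1.42 on day 52 and at -2.30 and 0.74 on day 45, in the same order, a difference of -2.68 (adjusted p = 0.0427 by limma). NL49_D10 was at -1.47 and 1.00 on day 52 and at -1.58 and 1.18 on day 45, a difference of -2.61 (adjusted p = 0.0466). All 3 were below 0 under severe and above 0 under mild stress on both days. On severe day 52, however, both channels of all 3 lay below the 95th percentile of the empty spots (stress channel 0.25, 0.20 and 0.27 times that level for NL49_D06, NL49_C02 and NL49_D10, control channel 0.43, 0.26 and 0.86 times), so the severe values of that day are ratios of background. The median of the 96 clones of plate NL49 was -0.26 under severe and 0.52 under mild stress on day 52, and -0.27 and 0.23 on day 45. NL20_B05 (-2.61, adjusted p = 0.0466) and NL32_F08 (-2.58, adjusted p = 0.0487) were the other lower clones. With print-tip loess 0 clones passed by limma (522 at an unadjusted p under 0.05), and the differences of NL49_D06 and NL49_C02 were -2.31 and -2.05 (adjusted p = 0.683 for both). The count was 0 without mild day 52 or severe day 45, 2 without severe day 52, 3 without either moderate array and 141 without mild day 45.

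**Figure D4:**
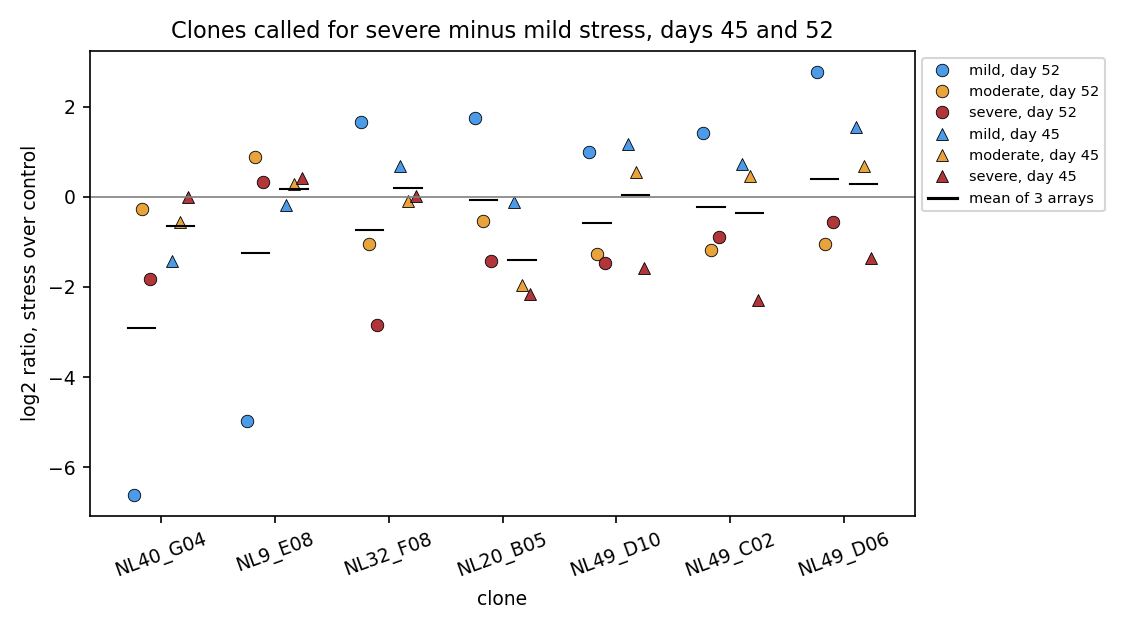
Log2 ratio of stress over control (vertical axis) of the 7 clones called for severe minus mild stress, with circles for day 52, triangles for day 45, colours for the stress level and black bars for the means of a day. NL40_G04 and NL9_E08 each have 1 low point, at -6.61 and -4.96 on mild day 52, while the 3 NL49 clones have both mild points above and both severe points below 0.

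Vegetative days were finally set against the 15 scanner arrays of days 55 to 71, in a fit that holds the level fixed and treats days as random blocks. Limma called 0 clones (0% called), 72 clones had an unadjusted p under 0.05 (0.987%) and the smallest adjusted p was 1. NL19_B02 was above 0 on 6 of 6 vegetative arrays, between 0.48 and 0.97, against a range of -0.93 to 0.85 and a median of -0.08 on the later arrays. Its difference was 0.84 (SE 0.25, adjusted p = 1); with print-tip loess it was 0.43, and severe day 52 lay at -0.08. MK_PG4_G07 differed by 1.08 (SE 0.35, adjusted p = 1). In the other direction NL_12_44 was below 0 on 6 of 6 vegetative arrays, with a mean of -0.88 and a later median of -0.02, and differed by -0.80 (SE 0.29, adjusted p = 1). With print-tip loess mild day 45 was at 0.32 and the difference was -0.58. Its duplicate spots lay up to 1.76 apart on an array. NL_12_21 differed by -0.60 (SE 0.24, adjusted p = 1). Both channels of NL_12_44 and of NL_12_21 lay below the 95th percentile of the empty spots on severe day 52 and moderate day 45. Those of NL19_B02 did so on severe day 45. The values of these clones on these arrays are ratios of background.

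The arrays also carry 144 spots of 24 named controls in print rows 11 and 12, which entered neither the normalization nor a test. Their names (cYIR, rYIR, uYIR, nYIR and Lambda) are those of a commercial spike-in set of yeast intergenic sequences and of phage DNA; the labels used here do not say whether or in what amounts such RNA was added to each channel. A few of them stood on 1 side of 0 on every array. The control rYIR07 was at -2.39 (mild), -2.87 (moderate) and -3.12 (severe) on day 52 and at -4.48, -3.15 and -2.95 on day 45. The control uYIR3 was at -2.85, -3.25 and -3.63 on day 52 and at -4.53, -3.06 and -2.86 on day 45. The control rYIR03 averaged -2.07 ± 1.05 (SD, n = 6), with -0.38 on mild day 52 and -3.65 on mild day 45 as its extremes. The control rYIR08 was above 0 on 6 of 6 arrays and averaged 1.43 ± 0.78 (SD, n = 6). With print-tip loess rYIR03 turned to 0.59 on mild day 52, while rYIR07, uYIR3 and rYIR08 stayed on their side of 0 on 6 of 6 arrays.

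The controls showed the shift of mild day 45 as well. On that array 23 of 24 controls were lower than on any other vegetative array, by a median of 1.17 below their mean over the other 5. Their median ratio there was -1.15, that of the clones in the same print rows was -1.06, and that of the clones in all other rows was 0.19. On day 52 the median control was at 0.17 (mild), -0.52 (moderate) and 0.16 (severe), and on the other arrays of day 45 at -0.12 (moderate) and -0.48 (severe). With print-tip loess, whose curves are fitted on clones only, the median control of mild day 45 was at -0.07. On day 52 that setting put it at 0.47 (mild), -0.50 (moderate) and -0.43 (severe), farther from 0 on the mild array and on the other side of it on the severe one.

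**Figure D5:**
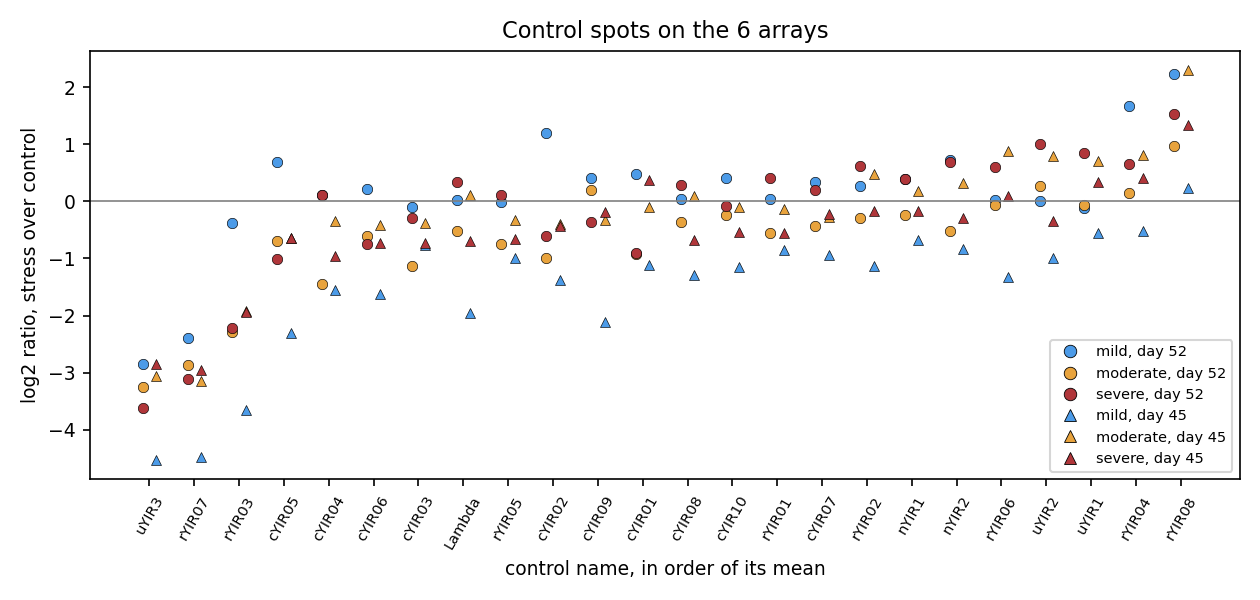
Log2 ratio of stress over control (vertical axis) of each of the 24 control names, ordered by their mean over the 6 arrays, with circles for day 52, triangles for day 45 and colours for the stress level; each point is the mean of the spots of that name on 1 array. The blue triangles (mild day 45) are the lowest point of 23 names, and uYIR3 and rYIR07 lie below -2 on every array.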

How the data were processed

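The 6 vegetative arrays, and 15 of days 55 to 71 for 1 comparison, were read from deposited QuantArray files, which per the file headers list a raw intensity and a local background for both channels of every spot. The intensity columns still held the background. On mild day 45 the deposited intensity values were sums over 80 pixels (other arrays end at 65535), and intensity and background were divided by 80. Each array has 15552 spots: 7296 clones in duplicate, 144 control spots and 816 empty ones. Background was corrected with normexp (offset 50) and each array normalized by 1 loess curve (span 0.3, 4 iterations), fitted on clone spots only; spots that the scanner software ignored were left out and duplicates averaged. Clones lost on an array (2 to 78 of them) enter fits with the arrays left. No scaling between arrays was applied.

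Tests used limma 3.58.1 in R 4.3.3 (tables read by data.table, version 1.17.8), adjusted over all 7296 clones at 0.05. The 3 levels of a day stand in for replicates (4 residual degrees of freedom), so differences between levels are part of the spread. The later-days fit had a day correlation of 0.287. The code was tested on simulated data. Plots used Python 3.11.15 and matplotlib 3.10.9. The number of arrays limits the precision.

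The authors' deposited value table holds a log2 ratio per spot, centred within each level (spot means within 0.00375 of 0); its columns matched their own array at correlations of 0.60 to 0.75, apart from moderate day 52, which matched moderate day 55 (0.76; own array -0.045). The deposited log2 columns had medians from -0.12 to 0.13. How its ratios were normalized is not given in the sources read here. It served as an alternative for the difference between days, over 6474 clones.

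Named clones are bright and are the 3 highest and 3 lowest of those called for the mean, each day and the difference of the days, filled by the smallest p where fewer passed, 2 per direction by the smallest p for severe minus mild and for vegetative minus later days, and 2 per direction of each list at 2-fold on all arrays of a day. MK_PG9_E01, MK_PG10_D03, NL37_A07, NL37_A11, NL38_E01, NL42_F05, NL49_D10, NL20_B05, NL32_F08, the plates and the controls were chosen after their values were seen. Members and lists were chosen with earlier results of these data known. Clones named for the mean or for a day also had to have the sign of the effect on all of its arrays. Those named for the difference of the days had to have all 3 arrays of a day above all 3 of the other. Their shared signs and lack of overlap are therefore part of the choice.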

Additional observations from a re-analysis of the deposited data

Results flagged for a closer look

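Among 40 sets of 6 arrays tested, 4 had 1 array far from the other 5 by Dixon's criterion. Chance alone sets apart about 1 in 20 of independent sets that were not chosen by their values. That rate does not hold here: most of the sets are named clones chosen by these same values, and the rest are summaries of the same arrays. The range of the print row medians was 2.227 on mild day 45, with 1.00 as the next highest. The log2 ratio of NL37_G01 was -0.9731 on severe day 45, with -1.68 as the nearest other array. NL40_G04 lay at -6.609 on mild day 52, where the nearest other value was -1.83. NL9_E08 lay at -4.962 on the same array, with -0.19 as the nearest other value.

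The effect of stress differed between the severe and the mild level, by the limma test of the difference, for 7 clones. The differences of severe minus mild were 3.10 for NL40_G04 and 2.95 for NL9_E08, both resting on mild day 52, and -3.12 for NL49_D06, -2.68 for NL49_C02, -2.61 for NL49_D10, -2.61 for NL20_B05 and -2.58 for NL32_F08. No such call was made with print-tip loess.

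Control spots outside all comparisons gave ratios on the same side of 0 on 6 of 6 arrays. The mean log2 ratio was -3.36 for uYIR3, -3.16 for rYIR07, -2.07 for rYIR03, -0.57 for cYIR03 and 1.43 for rYIR08. With print-tip loess 2 of these 5 crossed 0: rYIR03 on mild day 52 (0.59), and cYIR03 on mild day 52 (0.47) and mild day 45 (0.16). Whether the amounts of control RNA differed between the channels was not tested.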

How the results depend on the processing

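No named clone changed sign under any alternative in the comparison it was named for; they were chosen for large values or a small p. The counts were less steady. For the mean of both days limma called 2 clones. It called 78 without background correction, 50 with plain subtraction, 247 with median centring, 405 with array weights, 181 with the level as a fixed block, 478 over 21 arrays, 1 with mild day 45 as deposited, 1 over bright clones, 1 with the day as a random block and 0 to 53 with 1 array left out. Day 52 gave 1 without background correction, 1 with plain subtraction, 212 with median centring, 368 with array weights, 162 with the level block, 342 over 21 arrays and 0 to 87 with 1 array left out. Day 45 gave 16 calls without background correction, 38 with plain subtraction, 1 with print-tip loess, 45 with array weights, 13 with the level block and 611 over 21 arrays. Day 52 minus day 45 gave 66 with array weights, 27 with the level block and 481 over 21 arrays, and 0 in the authors' deposited value table. For severe minus mild the 7 calls became 23 without background correction, 62 with plain subtraction, 3 with array weights, 0 with print-tip loess, median centring, scaling between arrays, mild day 45 as deposited or bright clones only, and 0 to 141 with 1 array left out. Vegetative minus later days stayed at 0 in each setting run.

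The share at 2-fold or more on day 52 was 6.29% without background correction, 5.97% with plain subtraction, 7.38% with print-tip loess and 22.4% over bright clones, against 13.9%. That of day 45, 13.4%, was 7.19%, 4.70%, 2.86% and 14.1% in those settings. With scaling between arrays the shares were 7.68% on day 52 and 3.92% on day 45. Clones at 2-fold on all 3 arrays numbered 23 on day 52 and 22 on day 45; they numbered 10 and 10 without background correction, 5 and 9 with plain subtraction, 1 and 8 with print-tip loess, 70 and 42 with median centring, and 6 and 2 with scaling between arrays.

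Some alternatives were chosen after seeing the data: the settings for these list counts, and an exchange of the moderate arrays of days 52 and 55, whose columns in the deposited value table each followed the other day's scanner file. With the scanner file of moderate day 55 in place of moderate day 52, limma called 234 clones for the mean of both days (17 higher and 217 lower) and 191 for day 52 (6 and 185), and 98 clones were at 2-fold on all 3 arrays of day 52. With the 2 columns exchanged in the value table it called 129 clones between the days (11 and 118). The scanner file of moderate day 52 was closer to severe day 52 (r = 0.488) than to severe day 55 (0.144), which runs with its label. It was closer to mild day 55 (0.107) than to mild day 52 (0.025), which runs against the label, as does the value table. Every value of moderate day 52 carries this doubt. The cause of the other changes was not tested. Ratios of clones near the level of empty spots can be large. NL40_G04 was at -6.61 on mild day 52, with a stress signal 0.34 times the 95th percentile of the empty spots. The 6 arrays limit the precision.

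The labels give no replicate numbers. The days can be paired within a level, which shares 1 plot code, and the counts with the level block given above are that paired fit (27 calls for day 52 minus day 45).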
